A study of Mus musculus with 28 samples.

Results

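The regions described here are peaks of meiotic DNA breaks in testes of Prdm9 K/K mice that lie at the end of a noncoding gene and away from every protein-coding gene end. A peak was taken when it lay within 1000 bp of an end of a RefSeq gene (GRCm38.p6) that is a lncRNA, a small RNA gene or a pseudogene, and not within 1000 bp of any protein-coding gene end. This rule found 1738 of the 17731 deposited peaks, or 9.80%. Another 9009 peaks lay at coding gene ends, and 6984 lay at no gene end. Of 3263 peaks at any noncoding end, 1525 (46.7%) were also at a coding end and are not counted among the 1738.

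The Prdm9 K/K animals are C57BL/6 mice whose PRDM9 protein, per the labels, lacks its KRAB domain, and 1 library was made from whole testis by sequencing of single-stranded DNA after immunoprecipitation (SSDS). Testis RNA came from Prdm9 KO mice, Hop2 KO mice and adult wild-type mice of the same strain, with 2, 2 and 1 mRNA libraries, and from Prdm9 KO and Hop2 KO mice with 2 microRNA libraries each. No RNA library of Prdm9 K/K testes was analysed here, so break peaks and RNA levels come from different genotypes. No age is given for the knockout or Prdm9 K/K animals, and nothing states that replicate libraries were made from different mice, so the p-values given below reflect variation among libraries that may be technical.

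In meiosis SPO11 cuts both DNA strands, the ends are trimmed, and the single strands that remain are bound by the meiotic recombinase DMC1, which Hop2 helps to invade the partner chromosome. In mice PRDM9 normally directs these breaks by binding a DNA motif and marking nearby histones, and where its histone methylation is lost breaks form at promoters and enhancers that carry H3K4me3 instead. Noncoding RNA genes have promoters of several kinds. Many lncRNAs and microRNA hosts are read by RNA polymerase II, tRNA genes by RNA polymerase III, and most processed pseudogenes are reverse-transcribed copies that carry no promoter of their parent gene.

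The starts of 5 lncRNAs with a peak are shown as examples of start sequences at these peaks, 3 with many CpG dinucleotides and 2 with few. Each is the RefSeq window (GRCm38.p6) that runs, on the strand of the gene, over 250 bases before the start and the first 50 bases of the transcript, with each CpG in capitals. All 5 windows lie inside their peak, but each break point lies further into the gene, past the window. The windows are thus not the sequence at the break itself.
Xist, chrX:103483184-103483483, minus strand: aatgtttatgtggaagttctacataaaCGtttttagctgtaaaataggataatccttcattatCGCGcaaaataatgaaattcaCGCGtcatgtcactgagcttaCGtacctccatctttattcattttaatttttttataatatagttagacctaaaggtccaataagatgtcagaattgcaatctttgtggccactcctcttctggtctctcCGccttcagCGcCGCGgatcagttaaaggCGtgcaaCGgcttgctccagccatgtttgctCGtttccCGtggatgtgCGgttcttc
Jpx, chrX:103493308-103493607, plus strand: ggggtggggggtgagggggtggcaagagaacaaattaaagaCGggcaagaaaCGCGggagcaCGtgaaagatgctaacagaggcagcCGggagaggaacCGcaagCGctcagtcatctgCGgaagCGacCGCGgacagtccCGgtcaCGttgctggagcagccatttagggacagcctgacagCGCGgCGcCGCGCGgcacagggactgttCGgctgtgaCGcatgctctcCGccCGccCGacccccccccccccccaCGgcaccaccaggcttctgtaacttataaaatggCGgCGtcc
Chaserr, chr7:73558346-73558645, minus strand: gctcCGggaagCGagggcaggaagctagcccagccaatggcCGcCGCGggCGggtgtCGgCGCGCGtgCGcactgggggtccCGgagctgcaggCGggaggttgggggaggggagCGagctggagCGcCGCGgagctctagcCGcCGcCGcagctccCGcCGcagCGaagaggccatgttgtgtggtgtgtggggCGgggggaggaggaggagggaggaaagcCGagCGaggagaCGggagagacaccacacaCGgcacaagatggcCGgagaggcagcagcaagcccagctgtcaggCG
Gm52894, chr6:17840989-17841288, minus strand: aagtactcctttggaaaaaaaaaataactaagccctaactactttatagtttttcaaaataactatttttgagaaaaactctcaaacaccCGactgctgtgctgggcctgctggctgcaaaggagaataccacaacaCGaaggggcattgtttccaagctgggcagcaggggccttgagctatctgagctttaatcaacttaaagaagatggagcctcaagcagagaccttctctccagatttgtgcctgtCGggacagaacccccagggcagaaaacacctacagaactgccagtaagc
Airn, chr17:12741061-12741360, plus strand: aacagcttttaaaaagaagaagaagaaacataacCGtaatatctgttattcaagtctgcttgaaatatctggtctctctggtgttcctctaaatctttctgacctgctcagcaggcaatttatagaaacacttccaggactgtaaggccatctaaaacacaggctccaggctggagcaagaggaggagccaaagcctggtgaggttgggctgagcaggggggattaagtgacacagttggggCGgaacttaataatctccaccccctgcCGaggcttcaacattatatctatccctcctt
Xist silences the X chromosome that carries it, Jpx is an activator of Xist, Chaserr limits its neighbour Chd2, and Airn silences Igf2r on the paternal chromosome. Gm52894 has a database name only, and its peak lies within the coding gene St7. The windows of Xist, Jpx and Chaserr held 15, 27 and 30 CpGs, which is 1.18, 0.863 and 0.826 of the number expected from their C and G content. Those of Gm52894 and Airn held 3 CpGs each, at 0.195 and 0.192 of expectation. Peak strength did not follow this split: the peak at Gm52894 had 1668 fragments, more than the 1512 at the Chaserr start, 676 at Jpx and 650 at Xist, and the peak at Airn had 122.

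The 9 mature microRNAs with a mean deposited value of at least 1000 whose gene lies at such a peak are shown too, with the seed (bases 2 to 8) in capitals. miR-17-5p and miR-20a-5p share 1 seed and come from a cluster at a single peak, as does miR-92a-3p.
let-7i-5p: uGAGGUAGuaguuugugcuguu
miR-148a-3p: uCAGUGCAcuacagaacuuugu
miR-199a-3p: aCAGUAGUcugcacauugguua
miR-22-3p: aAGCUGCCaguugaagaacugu
miR-125b-5p: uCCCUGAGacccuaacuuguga
miR-199a-5p: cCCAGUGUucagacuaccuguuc
miR-17-5p: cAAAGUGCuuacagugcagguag
miR-20a-5p: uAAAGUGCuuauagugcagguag
miR-92a-3p: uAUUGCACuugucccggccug

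The SSDS file holds 9397213 fragments, of which 2652951 are distinct in position and strand. Of all fragments 26.8% lay in peaks, and 15.6% had a mapping quality under 30. With 1 library there is no test between conditions or peak classes, and intervals cover counting error only.

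Peaks at noncoding ends only were weaker and narrower than those at coding ends and slightly stronger than those at no gene end. They held a median of 72 fragments (quartiles 42 and 135), against 118 (58 and 244) at coding ends, 58 (36 and 103) at no gene end and 82 over all peaks. Counted once per distinct fragment the medians were 20, 34, 16 and 23. The median width was 1708 bp, against 2117 bp at coding ends and 1586 bp at no gene end. Peaks with at least 331 fragments, which are 10.1% of all peaks, took in 95 of the 1738 (5.47%), against 1433 of the peaks at coding ends (15.9%) and 254 of those at no gene end (3.64%). At the weak end, 248 of the 1738 had under 10 distinct fragments, so single-peak values there are imprecise.

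**Figure D1:**
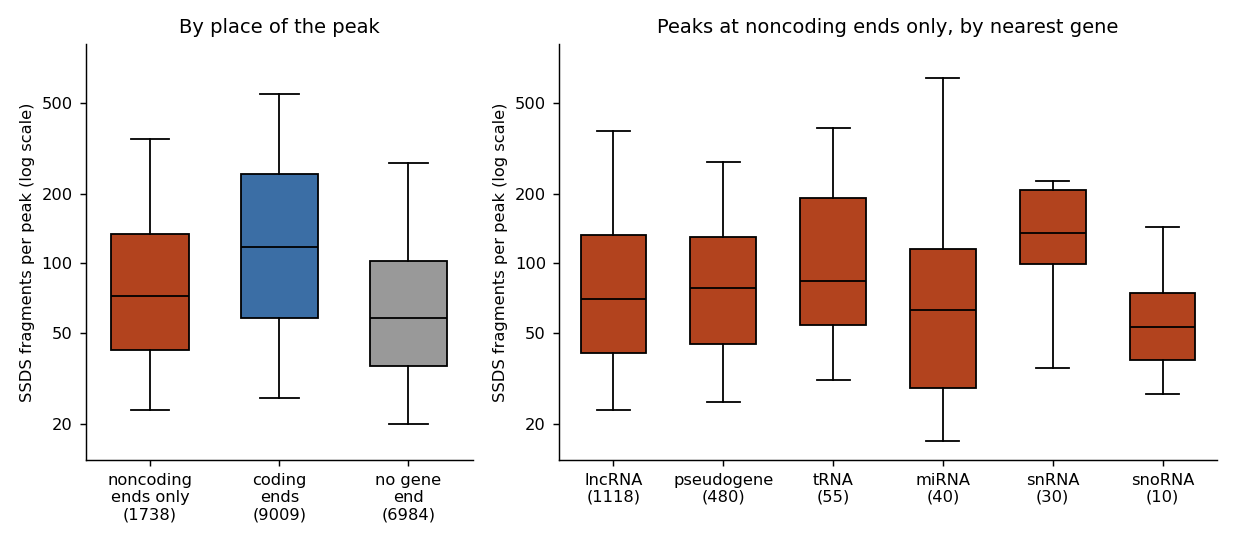
SSDS fragments per peak on a log axis, by place of the peak (left) and, for the 1738 peaks at noncoding ends only, by the class of the nearest gene (right). Lines are medians, boxes quartiles, whiskers the 5th and 95th percentiles, and the number of peaks stands in brackets; the medians are 72, 118 and 58 on the left, and of the 6 classes drawn on the right snRNA has the highest median, 136.

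The fragments had the strand pattern that resected breaks leave, with top-strand fragments to the left and bottom-strand fragments to the right. The share of distinct fragments in that order had a median of 80.0% over the peaks at noncoding ends only, against 81.8% at coding ends and 80.4% at no gene end. In 1690 of the 1738 (97.2%) more fragments were in this order than not. Summed over all 1738 peaks, 78.2% of the fragments within 1000 bp to the left of the peak centre were on the top strand, and 22.5% of those within 1000 bp to the right.

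Most of these peaks cover the gene end itself, and 1364 (78.5%) contain it. At the limit, the peaks nearest Gm52287 and Gm6877 were taken at 997 bp, with 11 and 16 fragments, and peaks at 1002 and 1003 bp from a noncoding end were not, with 38 and 27 fragments. The label holds in RefSeq gene coordinates, with a limit: 115 peaks have the start of a coding transcript within 1000 bp that is not the outermost end of its gene. Chromosome 18, with 81 of the peaks, could not be checked for such starts. Those 115 were stronger, at a median of 121 fragments, and without them the median of the remaining 1623 was 71. Of all 1738, 452 (26.0%) lay inside a coding gene, against 84.5% of the peaks at coding ends and 47.9% of those at no gene end. In 179 cases the peak lay at more than 1 noncoding gene, and 1 peak was taken only through the T cell receptor segment Trav7-6.

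By the nearest gene, 1118 of the 1738 peaks (64.3%) belonged to lncRNAs and 480 (27.6%) to pseudogenes. The rest belonged to 55 tRNA, 40 miRNA, 30 snRNA, 10 snoRNA and 4 other genes and 1 rRNA gene. The median fragment counts were 70 for lncRNAs, 78 for pseudogenes, 84 for tRNA genes, 62.5 for miRNA genes, 136 for snRNA genes, 53 for snoRNA genes and 144 for the 4 other genes, and the rRNA peak had 23. Seen from the genes, 1912 noncoding genes had such a peak, 58 of them more than 1. A peak of any kind lay at 45.5% of coding genes, 34.1% of tRNA genes (139 of 408), 18.9% of lncRNAs, 12.2% of miRNA genes, 7.31% of snoRNA genes, 5.89% of pseudogenes and 5.78% of snRNA genes.

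The 10 strongest peaks had at least 943 fragments each, and 9 of them lay at lncRNAs. The strongest, at A630072M18Rik (chr5:20949574-20953129), had 1801 fragments, but it is 1 of 3 in the 10 with a coding transcript start within 1000 bp, of Rsbn1l. The others of that kind were at Gm46864 near Slc35d1 (1628 fragments) and at Gm52095 near Tasor (943 fragments). With no coding start near, Gm52894 led with 1668 fragments, of which 442 were distinct (95% Poisson interval 402 to 485). Its strand order was 88.6% (exact 95% interval 85.3% to 91.4%), and its break point, where the strands switch, lay 436 bp inside the gene.

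The peak at the start of Dleu2, a lncRNA of a region often deleted in human leukaemia, was the widest of all at 10419 bp (chr14:61680293-61690711) and reached Gm35196. It had 1585 fragments, yet only 53.0% of its distinct fragments were in the expected order around its centre (48.3% to 57.7%). The strongest tRNA gene peak, at n-TKctt30, was likewise wide, at 8772 bp, with 1124 fragments and 58.1% in order (52.4% to 63.7%). Gm10433 (1227), Gm41301 (1056) and LOC102640985 (969 fragments) made up the 10. Chaserr had a peak at each end: 1512 fragments at its start and 286 at 683 bp from its 3′ end. The weakest peaks were those at Gm6085 and 5330413P13Rik, with 4 and 7 fragments.

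Among lncRNAs with a known role, Lncpint, a target of p53, had 851 fragments, Dubr 720, and Malat1, a nuclear RNA found in most cells, 585. Firre, an X-linked RNA that shapes nuclear organisation, had 358. Pvt1, next to Myc, had 67. Norad, which binds Pumilio proteins, had 112 fragments, but 75.9% of them were of low mapping quality. Of the 5 imprinted noncoding RNAs, Gnasas1 with 265 fragments, Meg3 with 159, Airn with 122 and Kcnq1ot1 with 89 lay above the median of 72, and Peg13 with 27 lay below it. Hosts of snoRNAs of the Snhg family had a peak often: 12 of the 18 in RefSeq had a peak of any kind, and 8 had one at noncoding ends only, with 35 to 269 fragments. The highest of these lay at Snhg3, which holds Snora73a.

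Peaks lay at the 5′ end of a larger share of lncRNAs than at the 3′ end. Of 6438 lncRNAs longer than 5000 bp, whose ends can be told apart, 482 (7.49%, exact 95% interval 6.86% to 8.16%) had such a peak at the start and 148 (2.30%, 1.95% to 2.70%) at the 3′ end. At 13412 coding genes of that length the shares with a coding-end peak were 50.5% and 5.50%. For the 1118 peaks nearest to a lncRNA, the nearest end was the start in 642 (57.4%), the 3′ end in 206 (18.4%) and of unknown strand in 270 (24.2%).

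The 115 peaks with a coding start near were left out of the break points at lncRNA starts. Where the start is known and a break point could be placed, in 438 of the other peaks, the break point lay a median of 131 bp downstream of the lncRNA start (quartiles -195 and 489 bp), and downstream in 61.4%. At 5686 coding starts it lay 168 bp downstream (8.5 and 321 bp), and downstream in 76.1%. The break points at lncRNAs were thus spread more widely, with 35.8% within 250 bp of the start against 57.2% at coding starts. The break point at Jpx lay 120 bp, at Chaserr 299 bp, at Airn 352 bp and at Xist 1305 bp inside the gene.

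**Figure D2:**
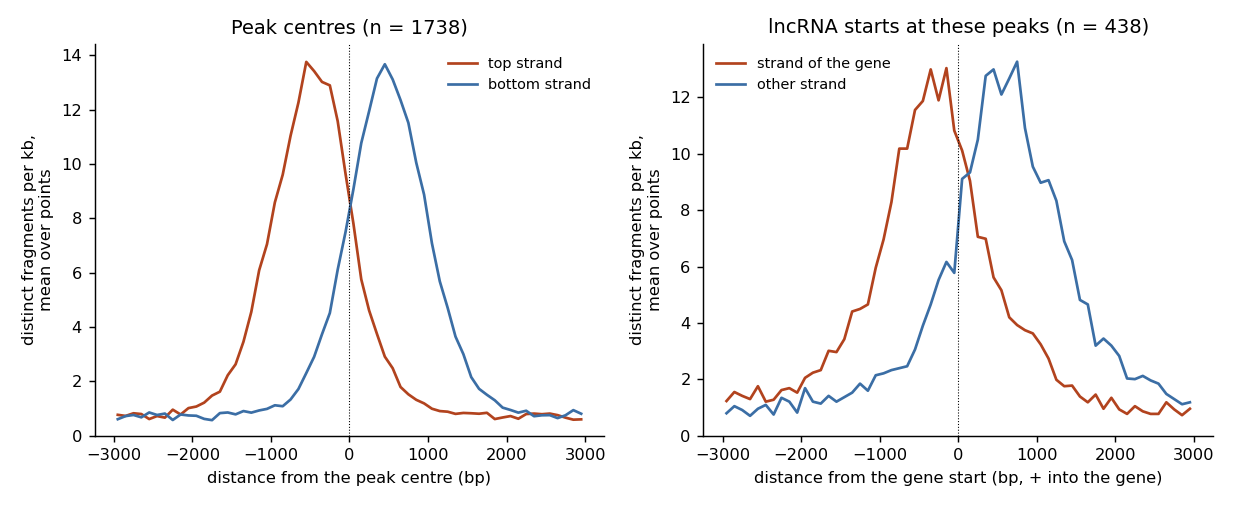
Distinct SSDS fragments per kb in bins of 100 bp, by strand, around the centres of the 1738 peaks (left) and around 438 lncRNA starts at these peaks, turned to the strand of the gene (right). On the right, the 115 peaks with a coding start near are left out. At peak centres the top strand is highest at -550 bp and the bottom strand at 450 bp; at lncRNA starts the strands cross just inside the gene.

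The lncRNA starts at these peaks were intermediate in CpG content. The 115 peaks with a coding start near were left out here, and lncRNA starts at them count among those at other peaks. The 734 RefSeq start windows within 1000 bp of a remaining peak at noncoding ends only had a median CpG observed over expected of 0.41 (quartiles 0.26 and 0.62). The 1131 lncRNA starts at other peaks, mostly shared with coding genes, had 0.77, the 9723 with no peak 0.21, and 9472 coding starts at a peak 0.79. A ratio of at least 0.6, as in CpG islands, was found in 26.3% at these peaks, 70.5% at other peaks and 6.56% with no peak.

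Among the 9097 lncRNA starts over 3000 bp from any coding end or start, 694 (7.63%) had a peak at noncoding ends only, leaving out the same 115. The share was larger at each step up in CpG content. It was 2.53% (exact 95% interval 2.08% to 3.05%) below a ratio of 0.2, 7.27% (6.41% to 8.22%) up to 0.4, 15.4% (13.3% to 17.6%) up to 0.6 and 38.0% (33.6% to 42.6%) at 0.6 or more. The strength of the peaks varied less, with medians of 59, 63.5, 82 and 79 fragments over the same steps. The lowest step held 108 of the starts with a peak, among them those of Airn and Gm52894.

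**Figure D3:**
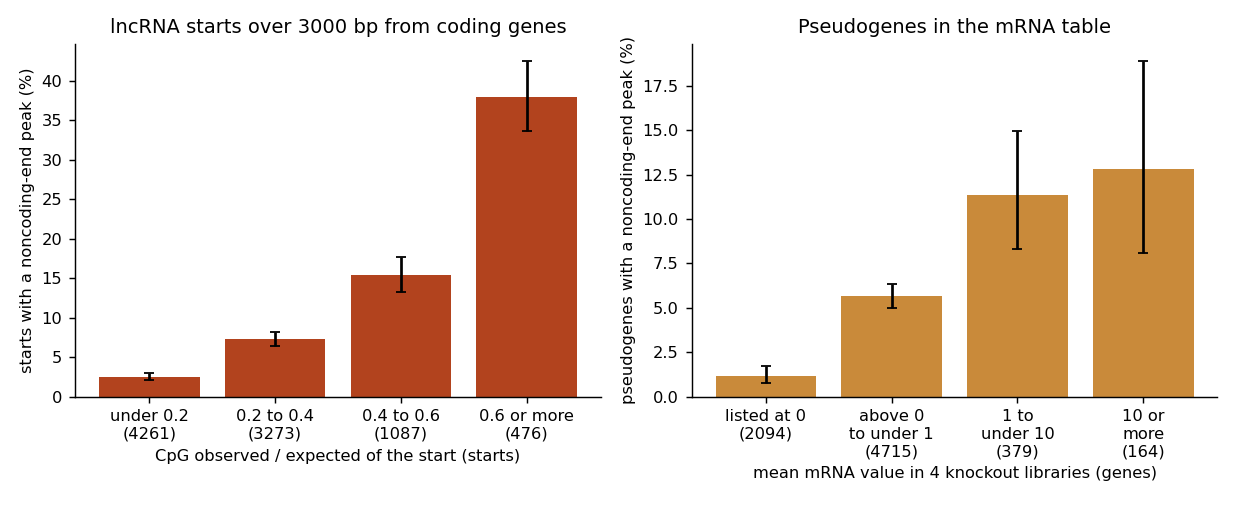
Share of lncRNA starts with a noncoding-end peak by CpG observed over expected (left) and share of pseudogenes with one by mean mRNA value in the 4 knockout libraries (right). On the left, the 115 peaks with a coding start near are left out. Bars are percentages, whiskers exact 95% binomial intervals, and the number of starts or genes stands in brackets; the left bars run from 2.53% to 38.0% and the right ones from 1.19% to 12.8%.

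Motifs were searched in the same windows on both strands. GGGCGG, the letters of an SP1/KLF site, was in 24.1% of the 734 windows at these peaks, against 60.5% at other peaks, 10.6% with no peak and 35.7% of all 32851 RefSeq start windows. Its letters contain a CpG. CCAAT (NFY) was in 36.1%, against 36.5% of lncRNA windows with no peak and 37.4% of all windows, and TATAAA in 15.1%, against 16.6% and 13.6%. CAACTG, letters of a MYB-family site, was in 14.2%, against 16.5% with no peak and 13.7% of all, and AACNGNC, another, in 35.6%, against 33.7% and 32.8%. CCGGAAGT (ETS) was in 3.54%, against 0.936% with no peak and 3.89% of all. TGACGTCA (CRE) was in 1.50%, against 0.720% with no peak and 1.79% of all, and AAGATGGCG (YY1) in 1.77%, against 0.370% and 1.40%. The palindromic site of NRF1 was in 0.681%, against 0.144% with no peak and 0.971% of all, and that of RFX in 0.817%, against 0.648% and 0.563%. The last 5 motifs were in 5 to 26 of the 734 windows.

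After coding genes, tRNA genes were the class with the largest share at a peak. At noncoding ends only, 61 peaks held 106 tRNA genes on 16 chromosomes, and 25 of these peaks held several, up to 7. Chromosome 13, where mouse tRNA genes cluster beside histone genes, had 38 of these genes and 21 of the 55 peaks nearest to a tRNA gene. There 5 such peaks lay within 23737 bp (chr13:21913940-21937676), with 35 to 118 fragments each. For the 30 peaks with a single tRNA gene and a placed break point, the break lay a median of 359 bp from the middle of the gene (quartiles 179 and 509 bp). Rn7sk, the RNA that holds the elongation factor P-TEFb inactive, had 295 fragments.

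Genes annotated as snRNA, most of which encode parts of the spliceosome, had runs of neighbouring peaks. On chromosome 11, 6 peaks in a row over 51093 bp (chr11:87421456-87472548) lay at the U1 gene Rnu1a1, at Gm22068 and at the U3 genes Rnu3b1, Rnu3b3, Rnu3b4 and Rnu3b2, with 109 to 228 fragments each. Between 14.2% and 41.2% of their fragments were of low mapping quality; copies of these genes are near-identical. On chromosome 1, 4 peaks over 31677 bp at Gm25360, Gm23472, Gm24497 and Gm25939 had 150 to 244 fragments, with 4.87% to 17.1% of low quality. Rnu5g, for U5, had 97 fragments and Rnu2-10, for U2, had 66. The strongest snRNA peak, at LOC115488100, had 608. The highest snoRNA peak after that at Snora73a was at Gm26418, with 144, and the single rRNA peak, at n-R5s195, had 23.

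The pseudogene peaks were the least certain in position. Their median share of low-quality fragments was 18.8%, against 2.08% at lncRNAs, and over 20% of fragments were of low quality in 225 of the 480. Over all 1738 this was so for 288 peaks (16.6%), against 2.36% of those at coding ends and 6.06% at no gene end. The strongest, at Pced1c-ps (793 fragments, 1.13% of low quality) and Gm52661 (773, 5.05%), had few fragments of low quality. Peaks at 22 ribosomal protein pseudogenes had 17 to 275 fragments, with a median of 83.5. Pseudogenes that RefSeq marks as transcribed had such a peak in 39 of 487 (8.01%, 5.76% to 10.8%), against 460 of 9955 others (4.62%, 4.22% to 5.05%).

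The share of pseudogenes with a peak also went with their mRNA level in the knockouts, where 7352 could be matched by name. It was 1.19% (exact 95% interval 0.774% to 1.76%) of those listed at 0, 5.66% (5.02% to 6.36%) at a mean value under 1, 11.3% (8.33% to 15.0%) at 1 to under 10, and 12.8% (8.10% to 18.9%) at 10 or more. Both the mRNA values and the peaks of near-identical copies can hold reads of the parent gene, and the part of this in the steps was not tested.

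The 57 miRNA genes at these peaks were taken through 47 peaks. The peak at Mirlet7i (chr10:122983834-122987959) was the strongest, with 818 fragments, followed by Mir1893 with 646. The Mir1893 peak lies inside the coding gene Epc1 on chromosome 18, which could not be checked for coding starts. The peak before the Mir17 to Mir92-1 cluster and its host Mir17hg (chr14:115039371-115043561) had 467 fragments, of which 141 were distinct (95% Poisson interval 119 to 166), and lay at 110 bp from Mir17. Mir125b-2 had 268 fragments, Mir132 and Mir212 share 1 peak of 111, Mir22 and its host share 1 of 91, and Mir148a had 43. Among the most abundant mature microRNAs, miR-148a-3p had a mean value of 19051 with 43 fragments at its gene, and let-7i-5p had 18823 with 818.

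The deposited microRNA values of 77 mature names from 46 of these genes were read as levels in Prdm9 KO and Hop2 KO testes and were not tested. A mean of at least 10 was reached by 40.3% of them, against 17.9% of all 1915 names in the table, and a mean of at least 1000 by 11.7% against 3.86%. A mature name that several genes encode counts the RNA of all of them. let-7i-5p, a let-7 family member, was at 13220 and 21274 in the Prdm9 KO libraries and 19276 and 21523 in the Hop2 KO libraries. miR-148a-3p was at 7096 and 17485 in the Prdm9 KO libraries, against 17100 and 34525 in the Hop2 KO libraries, so its libraries differed within each group by as much as between groups. miR-22-3p was at 8912 and 6608 in the Prdm9 KO libraries, against 12060 and 6024 in the Hop2 KO libraries.

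The microRNA genes of the Mir17 cluster, known for promoting cell growth, all lie at 1 peak. miR-17-5p was at 1795 and 1119 in the Prdm9 KO libraries, against 947 and 526 in the Hop2 KO libraries. miR-20a-5p, with the same seed, was at 5415 and 3386 in the Prdm9 KO libraries, against 2686 and 1276 in the Hop2 KO libraries. For both, the libraries within each group lay apart, and the difference between the groups was not tested. miR-92a-3p, which has another gene too, was at 6195 and 4573 in the Prdm9 KO libraries, against 3697 and 4147 in the Hop2 KO libraries. miR-19b-3p, which also has another gene, was at 1438 and 566 in the Prdm9 KO libraries, against 795 and 302 in the Hop2 KO libraries, where the groups overlap. They also overlap in miR-18a-5p, at 66.3 and 34.0 in the Prdm9 KO libraries and 37.7 and 22.9 in the Hop2 KO libraries. In miR-19a-3p they overlap too, at 233 and 90.0 in the Prdm9 KO libraries and 128 and 50.5 in the Hop2 KO libraries.

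**Figure D4:**
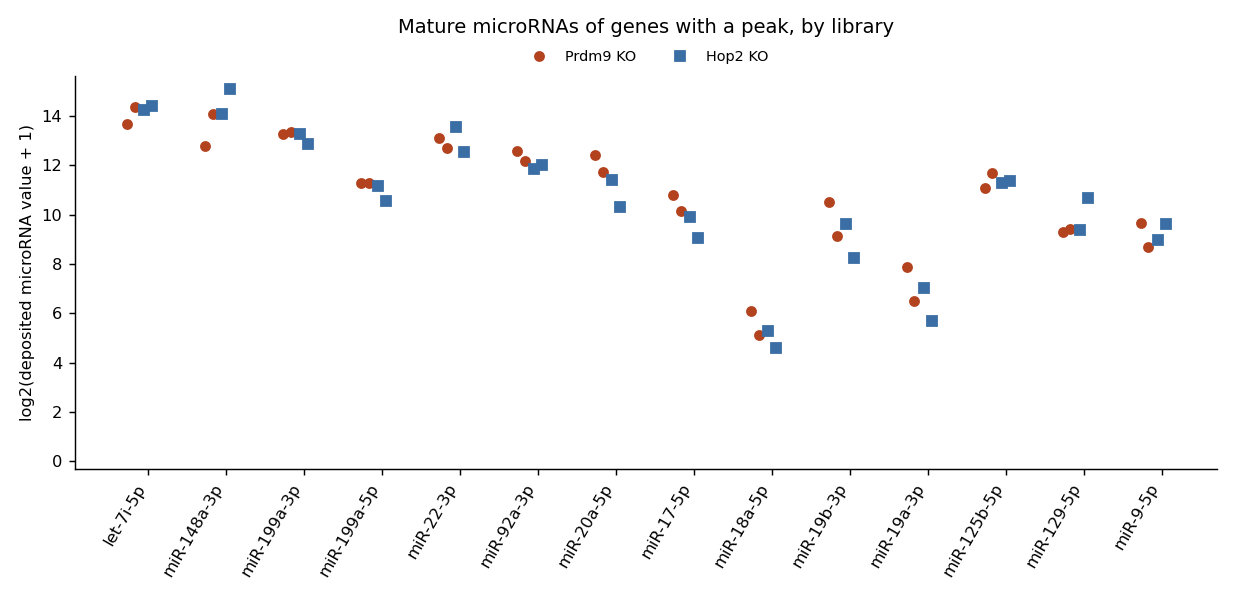
Deposited microRNA values on the log2(value + 1) scale for 14 mature microRNAs whose genes lie at peaks at noncoding ends only, 1 point per library, Prdm9 KO left of Hop2 KO. In miR-17-5p and miR-20a-5p the libraries within each group lie apart, and miR-148a-3p spans from 7096 to 34525.

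For mRNA, 387 of the 1912 genes were matched, 356 of them pseudogenes, 29 lncRNAs and 2 others, so lncRNAs are poorly covered. Of these 387, 14 were listed at 0 in all 5 libraries. The deposited values are called TPM in the file but sum to between 825459 and 1622660 per library. Psmc3ip, the gene of Hop2, was at 3.51 and 5.06 in the Hop2 KO libraries, 22.8 and 26.4 in the Prdm9 KO libraries and 197 in the wild-type library. Prdm9 was at 4.73 and 5.93 in the Prdm9 KO libraries, 10.7 and 15.0 in the Hop2 KO libraries and 6.20 in the wild-type library, and as the deleted part of the gene is not given this does not check the label. The summed level of 5 round spermatid markers was 0.854 to 27.2 in the knockouts and 106326 in wild type, that of 4 pachytene markers was 7.03 to 14.3 against 7602, that of 5 spermatogonial markers 178 to 237 against 72.7, and that of 4 Leydig cell markers 24200 to 71418 against 5636. The part of these marker levels in the comparisons with wild type below was not tested, and fewer cells of a type and less RNA per cell cannot be told apart in whole testis.

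Between Prdm9 KO and Hop2 KO, none of the 78 tested genes with a peak passed the threshold of 0.05 on the adjusted p (limma, over 14358 genes). At an unadjusted p under 0.05 there were 5 (6.41%), against 445 of all genes (3.10%), and 0.0139% of all genes passed the adjusted threshold. A pair of pseudogenes, named after their values were seen, lay far apart between the knockouts. Atp6v0c-ps2, a copy of a proton pump subunit gene, was at 599 and 253 in the Prdm9 KO libraries, 2.69 and 0.468 in the Hop2 KO libraries and 0.363 in the wild-type library. The Prdm9 KO libraries were above all others, and the log2 change against Hop2 KO was 7.39 (SE 0.60, limma adjusted p = 0.205). Gm5436 was at 21.2 and 12.8 in the Prdm9 KO libraries, 0.188 and 1.03 in the Hop2 KO libraries and 1.87 in the wild-type library, with a log2 change of 3.49 against Hop2 KO (SE 0.36, limma adjusted p = 0.299).

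Against wild type, 115 of the 387 genes passed the filter on low values. In Prdm9 KO 25 of these were higher and 53 lower (limma, adjusted p under 0.05), which is 21.7% and 46.1%, where 34.6% and 39.4% of all tested genes were (74.1% in either direction). In Hop2 KO 22 were higher and 54 lower, which is 19.1% and 47.0%, against 35.0% and 39.5% of all tested genes (74.5% in either direction). The comparisons share the wild-type library, which has no replicate. On the knockout libraries alone 78 genes with a peak passed the filter, so some of the 115 entered through the wild-type library. Genes that entered this way are higher in wild type than in the mean of the knockouts, which favours calls of lower. Of all genes, 14358 passed on the knockout libraries alone and 16261 with wild type. The part of the filter in the lower calls was not tested. Scaling moved the split: with each column rescaled to the same sum it was 34 higher and 40 lower in Prdm9 KO (30.6% and 36.0%, where 51.7% and 26.6% of all tested genes were) and 28 and 40 in Hop2 KO (25.2% and 36.0%, where 49.7% and 27.9% of all were). With quantile normalization it was 37 and 45 in Prdm9 KO (32.2% and 39.1%, where 49.5% and 30.6% of all were) and 33 and 47 in Hop2 KO (28.7% and 40.9%, where 49.3% and 30.8% of all were). The median log2 change of all tested genes was -0.08 in Prdm9 KO as deposited, 0.77 after rescaling and 0.58 after quantile normalization, and -0.06, 0.68 and 0.59 in Hop2 KO. None of the named genes with a call changed direction under these scalings.

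On the X chromosome most of the tested genes were higher in the knockouts, and off it most of those that passed were lower. Of 25 tested genes on X, 18 were higher and 4 lower in Prdm9 KO than in wild type, and of 90 on autosomes 7 were higher and 49 lower. In Hop2 KO these were 17 and 4 on X, and 5 and 50 on autosomes. The same direction held for all 742 tested genes of the X chromosome, with 60.1% higher and 23.6% lower in Prdm9 KO and 60.6% and 23.3% in Hop2 KO. Off the X chromosome, 34.3% of all tested genes were higher and 39.6% lower in Prdm9 KO, and 34.8% and 39.7% in Hop2 KO. On the knockout libraries alone, 22 genes with a peak on X and 56 off it passed the filter. Some of the 90 on autosomes and of the 25 on X thus entered through the wild-type library, which favours calls of lower among them. The split by chromosome was not repeated under the other scalings. The round spermatid and pachytene markers differed between the same libraries, and their part in this split was not tested.

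Many of the genes that rose most were X-linked. Of the 5 with the largest increase in Prdm9 KO, Fthl17-ps3, Supt20-ps and Gm6038 are X-linked, while Atp6v0c-ps2 (log2 change 8.16, SE 0.84, limma adjusted p = 0.00279) and Gm5436 (2.61, SE 0.48, limma adjusted p = 0.0132) are not. Those 2 did not pass the test in Hop2 KO against wild type (log2 change 0.77 and -0.89, limma adjusted p = 0.451 and 0.176). The 5 with the largest increase in Hop2 KO, which are Fthl17-ps3, Supt20-ps, 1700011M02Rik, Gm6038 and Gm371, are all X-linked. The X-linked AU015836 was at 138 and 144 in the Prdm9 KO libraries, 139 and 158 in the Hop2 KO libraries and 29.9 in the wild-type library, a log2 change of 2.20 in Prdm9 KO and 2.27 in Hop2 KO (SE 0.12 each, limma adjusted p = 0.000627 and 0.000573). It lies with Supt20-ps, Gm4990 and Gm15165 in a run of 4 peaks over 67959 bp (chrX:93921586-93989544) with 193 to 252 fragments each. 1700011M02Rik was at 405 and 278 in the Prdm9 KO libraries, 470 and 407 in the Hop2 KO libraries and 70.1 in the wild-type library. Fthl17-ps3, a copy of a ferritin-like gene, was at 28.5 and 26.8 in the Prdm9 KO libraries, 46.6 and 51.1 in the Hop2 KO libraries and 2.52 in the wild-type library, a log2 change of 3.02 and 3.82 (SE 0.13 each). Gm6038, Gm371 and Supt20-ps rose likewise, by 2.35 to 2.89 on the log2 scale over both knockouts. Of the peak fragments, 77.2% at Gm6038 and 46.5% at 1700011M02Rik were of low mapping quality. At AU015836, Fthl17-ps3, Gm371 and Supt20-ps this was 2.78% to 14.6%.

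The genes that fell most were near 0 in both knockouts. They passed the filter on low values only through the single wild-type library, so a fall was the only change they could show. 1700123L14Rik was at 0.0590 and 0.0766 in the Prdm9 KO libraries, 0.0364 and 0.257 in the Hop2 KO libraries and 836 in the wild-type library, a log2 change of -9.62 in Prdm9 KO and -9.52 in Hop2 KO (SE 0.16 each). Mospd4 (log2 change -8.98 and -8.87), 1700001J11Rik (-8.96 and -8.93), 1700086L19Rik (-8.14 and -8.17) and Ppp1r2-ps3 (-6.65 and -6.45) fell likewise in Prdm9 KO and Hop2 KO, with no knockout library above 1.07. At the peak of Ppp1r2-ps3 48.8% of the fragments were of low mapping quality, and at most 21.1% at the others that fell most. On autosomes, the copy Gm9843 rose by 1.45 in Prdm9 KO and 1.65 in Hop2 KO, with adjusted p = 0.0239 and 0.0168 in limma. Gm7536 was at 971 and 937 in the Prdm9 KO libraries, 1089 and 1141 in the Hop2 KO libraries and 733 in the wild-type library, and passed the test in Hop2 KO (log2 change 0.60, adjusted p = 0.0468). Rpl28-ps1, the copy of a ribosomal protein gene with the second highest mean, did not pass in either (log2 change 0.08 in Prdm9 KO and 0.21 in Hop2 KO). When 1 knockout library was left out, the calls of Gm371 and Supt20-ps in Prdm9 KO, of Gm7536 in Hop2 KO and of Gm9843 in both were lost (limma adjusted p between 0.0534 and 0.192), while those of Gm371 and Supt20-ps in Hop2 KO were kept (at most 0.0433). Reads of the parent gene can enter the values of such copies.

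**Figure D5:**
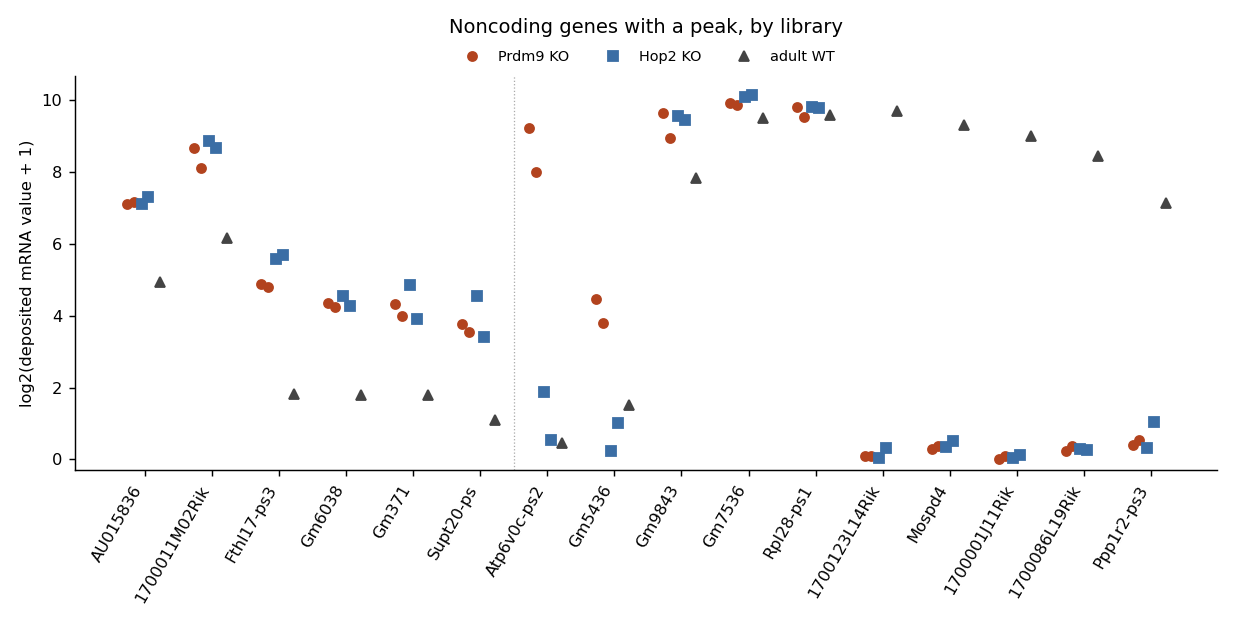
Deposited mRNA values on the log2(value + 1) scale for 16 noncoding genes with a peak, 1 point per library, Prdm9 KO left of Hop2 KO and wild type; the dotted line parts the 6 X-linked genes from the rest. The X-linked genes lie above wild type in all 4 knockout libraries, and the last 5 genes lie near 0 in all of them.

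The X chromosome held 74 of the 1738 (4.26%), 41 at pseudogenes, 32 at lncRNAs and 1 at a tRNA gene, and Y held none. The X peaks had a median of 106 fragments, against 71 on autosomes. At coding ends the medians were 147 on X and 117 on autosomes, and at no gene end 58 on both. Of the 74, 52 were at or above the median of all 1738. At the X inactivation centre 3 lncRNAs had a peak: Jpx with 676 fragments, Xist with 650 and Ftx with 198. On autosomes the share of peaks that were at noncoding ends only ran between 6.91% on chromosome 5 and 14.1% on chromosome 13, and on X it was 12.1%.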

How the data were processed

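Of 28 mouse testis and cell line samples, 10 were analysed and 18 were not analysed here. The break peaks were called with MACS2 2.1.0.20150420 on GRCm38 (mm10), per the submitters' processing notes, and were deposited by the authors as positions with no score or strand. The deposited fragment list gives position, strand and a pair of numbers read here as mapping qualities. Fragments overlapping a peak were counted from all lines, while strand order, break points and Poisson intervals used distinct fragments; duplicates averaged 3.54 lines per distinct fragment. The expected order is the top strand left and the bottom strand right of the peak centre, and intervals are exact (95%).

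The mRNA values are a deposited signal named TPM, per the file headers, made with kallisto and sleuth, per the submitters' processing notes; the microRNA values are a signal of the same name. Their read depth is unknown. For mRNA, limma 3.58.1 (R 4.3.3) was fitted with a trend of the variance on intensity to log2(value + 1). Genes whose libraries in the fit averaged 1 or more were kept, with Benjamini-Hochberg adjustment over all genes and a threshold of 0.05, and the script was tested on simulated data. The pseudocount makes changes of low genes look smaller. Prdm9 KO and Hop2 KO were compared in 4 libraries and each with wild type in 5, where the variance of the lone wild-type library is taken from the knockouts. The tables had 0 further columns of single samples.

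Gene ends, classes and start windows of 300 bases came from RefSeq, GRCm38.p6, with both ends of each gene used. No genome was used, so the planned CpG content of peak centres was replaced by that of RefSeq start windows. Genes were matched by symbol or gene name table. The members and lists were chosen with earlier results of these data known. The peaks named were the 10 strongest, the 2 weakest, the 2 strongest of each class, those next to the distance limit, strong ones on X and those at RNAs with a known role. The genes named were the 10 with the highest mean, up to 5 of each direction per comparison, and those stated as chosen later. Alternatives were other distance limits, peak sets, fragment counts, pseudocounts, filters, scalings, a replicate block and leaving out libraries.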

Additional observations from a re-analysis of the deposited data

How the results depend on the processing

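The number of peaks was between 1275 (without pseudogenes) and 1859 (a limit of 2000 bp) over 5 other settings, and 1623 without peaks that have a coding start near. It was 778 among peaks at or above the median of all peaks by fragments, a choice made after seeing the data. The median of 72 fragments was 20 when identical lines were counted once, and between 63 and 76 under the other alternatives. The median share in strand order was 86.7% when split at the best position in each peak. The planned use of a peak score and of CpG content in peak intervals could not be run, as the peaks have no score and no genome was used. Between Prdm9 KO and Hop2 KO, 2 of all genes were called; the count was 1 with a pseudocount of 5, 0 with no filter, and 3 to 11 when 1 library was left out, and none of the genes with a peak was called in these. Same-numbered knockout libraries deviated together (correlation 0.413 over 14358 genes), but with only 2 pairs the numbers are not shown to pair animals; with the replicate block 8 genes were called, 1 of them with a peak, Atp6v0c-ps2 (adjusted p = 0.000117 in limma). Against wild type, the calls among genes with a peak were 149 in Prdm9 KO and 152 in Hop2 KO of 373 tested with no filter (39.9% and 40.8%, where 57.7% and 58.3% of all 30272 genes were called). When 1 library was left out, the median log2 change of genes with a peak was -0.93 to -0.68 in Prdm9 KO against wild type. Over all genes it was -0.13 to -0.11. In Hop2 KO against wild type these medians were -1.18 to -0.77 and -0.09 to -0.08. Genes with a peak that passed the filter only through the wild-type library are among them. With rescaled columns the median of genes with a peak was 0.005 in Prdm9 KO and -0.18 in Hop2 KO. After quantile normalization it was -0.02 and -0.13. With no filter it was -0.10 and -0.08, against -0.06 over all genes in both knockouts. For the genes named with a test, 302 values under an alternative kept their direction and call, 16 lost the call, 1 gained it and none changed sign. The cause of these changes was not tested except where stated. Peaks with under 10 distinct fragments, the single SSDS library and the single wild-type library limit precision.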
